A study of Homo sapiens with 6 samples.

Results

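Oxidative phosphorylation is carried out by 5 protein complexes of the inner mitochondrial membrane, and its subunits are encoded in 2 genomes. The transcripts described here are those of 51 subunits. Of these, 38 are nuclear genes for complexes II to V, and 13 are the protein-coding genes of mitochondrial DNA, which serve complexes I, III, IV and V. They were matched by gene name, from a table of 63677 genes, by a rule that uses no measured value. The choice of these members was made with earlier results of these data known. Older symbols were kept (ATP5A1 for the gene now called ATP5F1A, for example). Of the whole table, 12507 genes had enough counts for testing, and all 51 members were among them.

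Complex II (succinate dehydrogenase) passes electrons from succinate to ubiquinone. Complex III hands them to cytochrome c, complex IV (cytochrome c oxidase) reduces oxygen, and complex V is the ATP synthase that uses the resulting proton gradient. Mitochondrial DNA is transcribed from each strand as a long precursor, from which mRNAs are released largely by excision of the tRNAs that lie between them. MT-ATP8 and MT-ATP6 remain joined on a shared mRNA, as do MT-ND4L and MT-ND4. Complex II is the complex of this chain that has no subunit from mitochondrial DNA.

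The series compared RNA from cultures labelled as the colorectal cancer line LoVo, transfected either with siRNA against the long noncoding RNA SNHG15 (called siSNHG15 here) or with a scramble control siRNA. Each was used at 25 nM for 48 h, and 3 libraries were made per group. Per the study's methods, the siSNHG15 cultures received a combination of 2 siRNAs, so effects of the separate siRNAs cannot be told apart. Poly(A)-selected stranded libraries were read as pairs of 75 bases, and the deposited values are read counts per gene. The replicates are described as biological but came from a single cell line, and the p-values measure the spread between these cultures.

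Library totals ran from 3446922 counts in scramble replicate 3 to 10256710 in scramble replicate 2. SNHG15, the targeted RNA, was at 276 ± 14.3 counts per 1000000 (CPM, scaled with edgeR's TMM factors, mean ± SD, n = 3) in the scramble and 82.5 ± 5.0 in the siSNHG15 libraries, with a log2 fold change of -1.74 (edgeR adjusted p = 2.62e-05). Of 8 markers of colorectal epithelium, KRT8, KRT18 and CDX2 had enough counts for testing, while EPCAM, KRT20, VIL1, CDH17 and CEACAM5 had 0 or 1 count in every library. These 5 defining markers of the labelled cell type were therefore not detected. A 0 here may not mean absence, since genes that most cells use, such as PRORP and MTERF1 of mitochondrial RNA handling, were also listed at 0 in every library (named here after their values were seen). Of 5 fibroblast markers, COL1A1 had 2 to 9 counts and the rest 0 or 1, and of 5 leukocyte markers CD79A had 1 to 6 and the rest 0 or 1. On the axis of largest variance among all tested genes, which held 46.0% of it, siSNHG15 replicate 1 stood farthest out at 39.1, against 14.3 and 11.5 for the other siSNHG15 libraries and -24.0 to -17.0 for the scramble libraries. For the called members and for MT-ND4L, MT-CO1 and ATP5I, values are also given without it.

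The mitochondrial results turn on MT-ND5, MT-ND3, MT-ATP8 and MT-ND4L, and among them MT-ATP8 and MT-ND4L share bases with a neighbour on the same mRNA. Their sequences show which bases of each gene are shared with the neighbour. Both are on the plus strand of the mitochondrial chromosome (GRCh37), MT-ATP8 at chrM:8366-8572 and MT-ND4L at chrM:10470-10766, each a single coding exon. They are printed 5′ to 3′ with the bases shared with the downstream gene in capitals.
MT-ATP8: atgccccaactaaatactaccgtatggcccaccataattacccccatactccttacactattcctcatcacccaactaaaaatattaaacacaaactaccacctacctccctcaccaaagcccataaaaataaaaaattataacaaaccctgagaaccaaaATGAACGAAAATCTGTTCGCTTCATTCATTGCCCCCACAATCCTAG
MT-ND4L: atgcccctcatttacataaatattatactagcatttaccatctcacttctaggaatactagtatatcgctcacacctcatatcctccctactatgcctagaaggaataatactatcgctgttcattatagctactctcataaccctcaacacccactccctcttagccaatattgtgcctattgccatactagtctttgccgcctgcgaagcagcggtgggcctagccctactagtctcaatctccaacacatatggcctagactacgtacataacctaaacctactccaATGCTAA
Of the 207 bases of MT-ATP8, 46 (22.2%) are also the start of MT-ATP6. Of the 297 bases of MT-ND4L, 7 (2.36%) are also the start of MT-ND4. Read pairs that start outside the shared bases can also reach into the neighbour. How the counting treated pairs that touch both genes is not given in the sources used here. Such read pairs cannot be assigned to either gene with certainty.

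After SNHG15 siRNA, 3 of the 13 mitochondrial mRNAs rose and 0 fell, and 1 of the 38 nuclear subunits fell and 0 rose (edgeR quasi-likelihood test, Benjamini-Hochberg adjusted p under 0.05 over all 12507 genes, which is meant by called below). The 3 that rose were MT-ND5, MT-ND3 and MT-ATP8, between 2.08 and 3.03-fold, and the nuclear gene that fell was SDHB, to 0.748 of its scramble level. Of all tested genes, 3.13% were called higher and 2.23% lower, or 5.36% in either direction. The 1 nuclear subunit of 38 called lower is near that share. Nothing is read from it about the nuclear subunits as a group. The median log2 fold change was -0.02 over the 51 members, -0.03 over the nuclear and 0.18 over the mitochondrial members, against 0.0005 over all genes. The mitochondrial median was -0.13 without siSNHG15 replicate 1. The nuclear estimates spanned -0.49 to 0.61 and the mitochondrial estimates -0.45 to 1.60.

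At an unadjusted p under 0.05 stood 6 members with higher and 4 with lower values in siSNHG15 libraries, against 22.5% of all tested genes in either direction. The groups did not overlap for 5 members that were higher and 5 that were lower, where 28.8% of all tested genes had groups that did not overlap. Both shares among the 51 members were near or below these backgrounds, and nothing is read from them about the members as a group. Among mitochondrial mRNAs, 7 estimates lay above 0 and 6 below. Among nuclear members, 16 lay above and 22 below, and among all tested genes 6260 lay above and 6247 below.

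**Figure D1:**
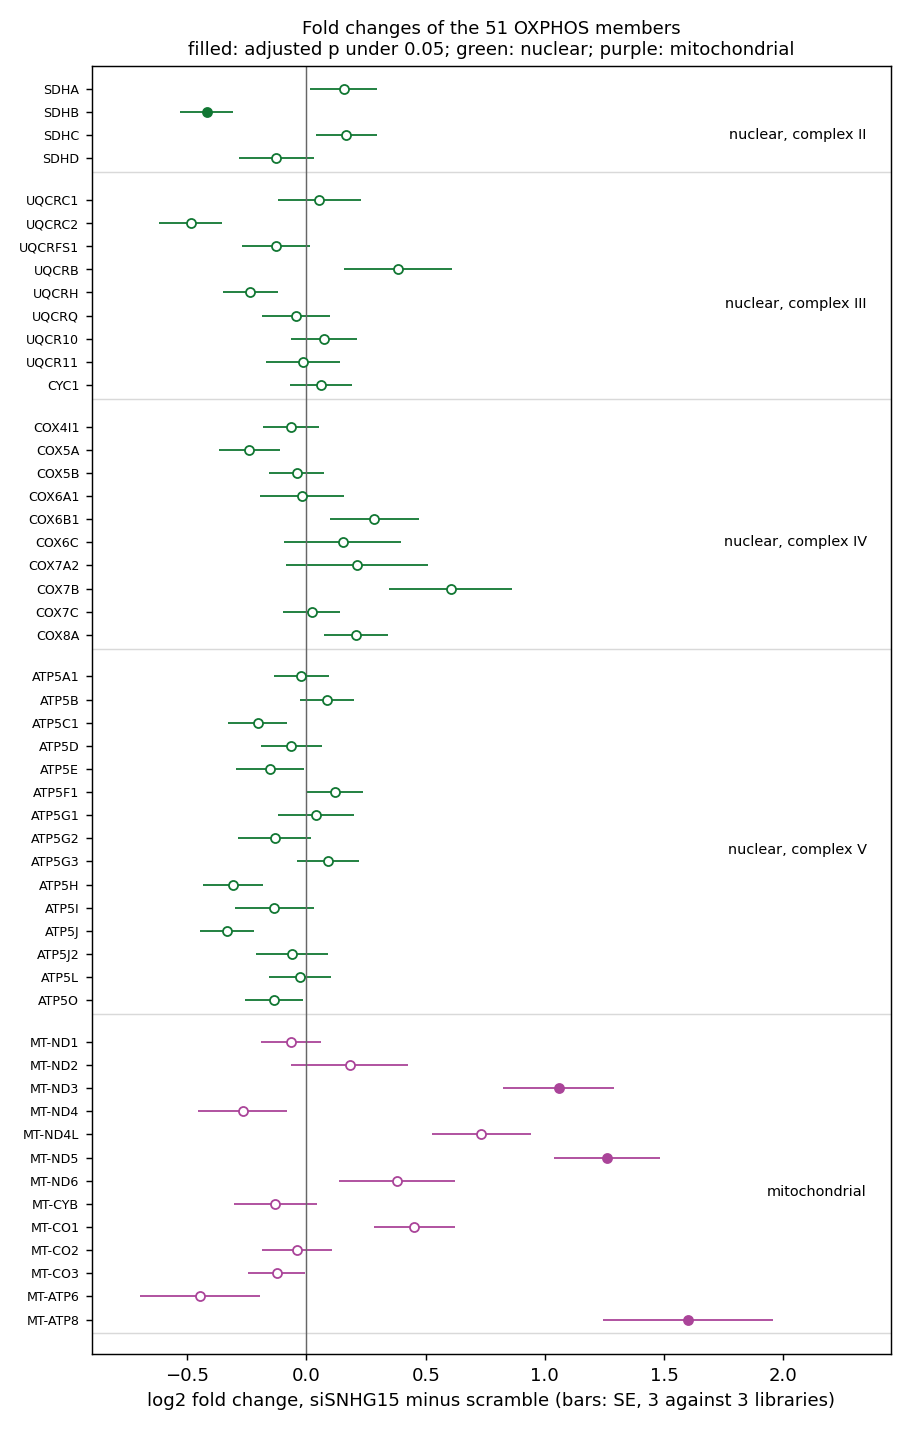
Log2 fold changes (horizontal axis, siSNHG15 minus scramble, bars are standard errors, 3 libraries per group) of the 51 members, listed by complex for the nuclear genes and together for the mitochondrial mRNAs. Filled points are the 4 members with an adjusted p under 0.05: SDHB below 0, and MT-ND3, MT-ND5 and MT-ATP8 above 0, while the nuclear estimates stay between -0.49 and 0.61.

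MT-ND5 encodes a proton-pumping membrane subunit of complex I and lies near the end of the major coding strand. It was at 281, 259 and 370 CPM in scramble replicates 1 to 3 and at 1047, 553 and 577 CPM in siSNHG15 replicates 1 to 3. Every siSNHG15 library was above every scramble library, and siSNHG15 replicate 1 was far above the other siSNHG15 libraries. The rise was 2.40-fold, a log2 fold change of 1.26 (SE 0.22, edgeR adjusted p = 0.00785). Without siSNHG15 replicate 1 the log2 fold change of MT-ND5 was 0.90 (adjusted p = 0.00208). The call was lost without scramble replicate 1 (1.21, adjusted p = 0.0505) and without scramble replicate 2 (1.17, adjusted p = 0.0627). Leaving out any other single library kept the call. Across these fits the estimate ran from 0.90 to 1.43.

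MT-ATP8 encodes a small membrane subunit of the ATP synthase. Its counts were low, with 28, 54 and 17 reads in the scramble and 164, 72 and 72 in the siSNHG15 libraries. These are 3.28, 5.37 and 5.14 CPM against 22.7, 10.4 and 8.46 CPM. The groups did not overlap, and siSNHG15 replicate 1 was again the highest library. MT-ATP8 rose 3.03-fold, a log2 fold change of 1.60 (SE 0.36, edgeR adjusted p = 0.0221). Without siSNHG15 replicate 1 the value was 1.04 and stayed called (adjusted p = 0.0256). The call was lost without scramble replicate 1 (1.38, adjusted p = 0.112), replicate 2 (1.81, 0.0882) or replicate 3 (1.65, 0.067).

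MT-ND3, another membrane subunit of complex I, was at 18.9, 22.8 and 28.4 CPM in the scramble libraries and at 65.9, 44.7 and 32.8 CPM in the siSNHG15 libraries. The lowest siSNHG15 library was close above the highest scramble library. Its rise was 2.08-fold, a log2 fold change of 1.06 (SE 0.23, edgeR adjusted p = 0.0213). Without siSNHG15 replicate 1 it was 0.76 (adjusted p = 0.0224). Leaving out scramble replicate 1 or 2 gave 0.92 and 1.06, with adjusted p-values of 0.111 and 0.105.

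MT-ND4L, a further small membrane subunit of complex I, had groups that did not overlap without being called. Its 3 scramble libraries were at 7.85, 9.75 and 12.7 CPM, and its siSNHG15 libraries were at 19.6, 14.96 and 14.2 CPM. The log2 fold change was 0.73 (SE 0.21, edgeR adjusted p = 0.0574), or 0.59 without siSNHG15 replicate 1. MT-CO1, the catalytic subunit of complex IV, was at 508, 505 and 654 CPM against 967, 605 and 706 CPM. These groups overlapped, because scramble replicate 3 was above siSNHG15 replicate 2, and the log2 fold change was 0.45 (SE 0.17, adjusted p = 0.138), or 0.24 without siSNHG15 replicate 1 (adjusted p = 0.285). MT-ATP6, the proton channel subunit of complex V, had the lowest estimate of the mitochondrial genes. It was at 478, 939 and 1128 CPM against 751, 644 and 470 CPM, a log2 fold change of -0.45 (SE 0.25, adjusted p = 0.316). It was -0.74 without scramble replicate 1, -0.28 without siSNHG15 replicate 3 and -0.19 without scramble replicate 3. The groups of MT-ATP6 overlapped widely, since scramble replicate 1 was nearly as low as the lowest siSNHG15 library.

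MT-CO3, a core subunit of complex IV, took most of the mitochondrial mRNA counts. It was at 11930, 11300 and 14470 CPM in the scramble and 12040, 10920 and 11610 CPM in the siSNHG15 libraries. The groups overlapped and the log2 fold change was -0.12 (SE 0.12, edgeR adjusted p = 0.574). The other 6 mitochondrial mRNAs had overlapping groups and were not called. For complex I, MT-ND1 was at 579 ± 61.1 against 554 ± 42.6 CPM, MT-ND2 at 25.7 ± 4.87 against 28.8 ± 11.8 CPM, and MT-ND4 at 489 ± 126 against 406 ± 72.3 CPM (scramble against siSNHG15, SD, n = 3 each). MT-ND6, the gene of this set that is read from the opposite strand, was at 423 ± 161 against 549 ± 111 CPM. MT-CYB, the cytochrome b of complex III, was at 192 ± 49.8 against 175 ± 21.4 CPM, and MT-CO2, the subunit of complex IV that receives electrons from cytochrome c, at 106 ± 15.3 against 104 ± 14.8 CPM. Their log2 fold changes lay between -0.27 for MT-ND4 and 0.38 for MT-ND6, and none of them passed the test.

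**Figure D2:**
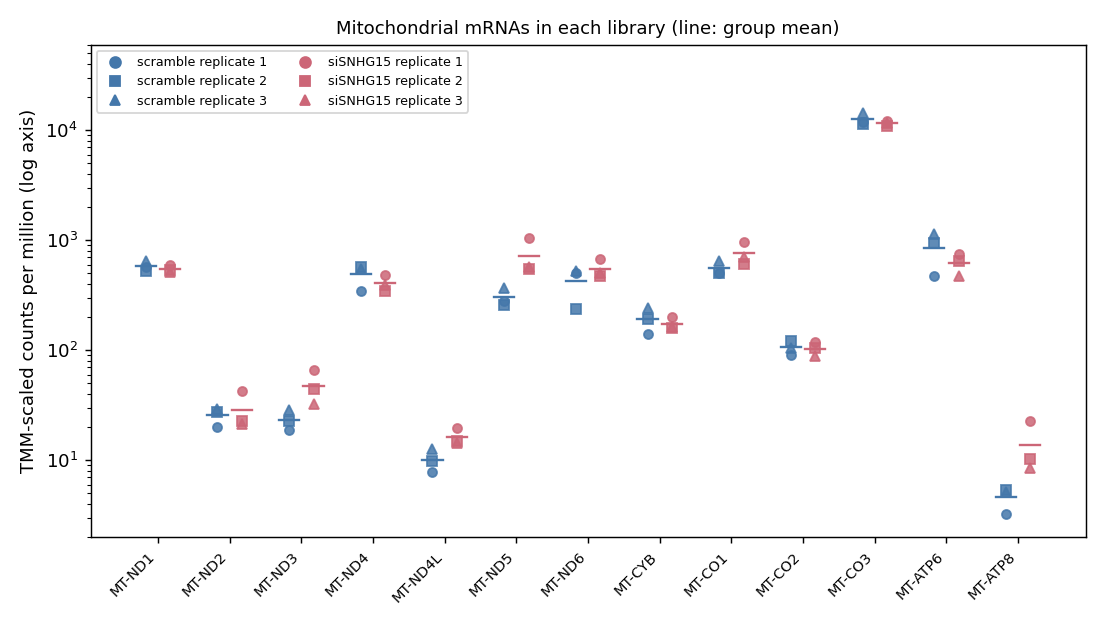
Levels of the 13 mitochondrial mRNAs in each library (TMM-scaled CPM, log axis; blue is scramble, red is siSNHG15, the marker shape is the replicate and lines are group means). The 3 siSNHG15 libraries lie above the 3 scramble libraries for MT-ND3, MT-ND4L, MT-ND5 and MT-ATP8, with siSNHG15 replicate 1 highest in each, and the groups overlap for the other 9.

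Levels of different genes can be set side by side only per length. In the scramble libraries MT-CO3 was at 16030 CPM per kilobase (kb) of transcript, the next gene, MT-ATP6, at 1246, and MT-ND6 at 806. The strand setting of the counting is not given in the sources used here. Counts on MT-ND6 may therefore include reads of the other strand. At the other end, MT-ATP8 was at 22.2, MT-ND2 at 24.6 and MT-ND4L at 34.0 CPM per kb. MT-ATP8 and MT-ATP6 are parts of the same mRNA, as are MT-ND4L and MT-ND4 (355 CPM per kb), yet their counts per length were far apart in both groups. In siSNHG15 libraries MT-ATP8 was at 66.9 and MT-ATP6 at 913 CPM per kb.

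These gaps within shared mRNAs lead to a ratio that does not depend on how libraries were scaled. The ratio can still depend on fragment length and on how read pairs touching both genes were counted. Neither is given in the sources used here, and their part in the ratios was not tested. MT-ATP8 counts per 100 MT-ATP6 counts were 0.687, 0.572 and 0.456 in the scramble and 3.03, 1.61 and 1.80 in the siSNHG15 libraries. MT-ND4L counts per 100 MT-ND4 counts were 2.28, 1.69 and 2.32 against 4.03, 4.37 and 3.63. In each of these pairs every siSNHG15 library was above every scramble library, and for MT-ND4L the siSNHG15 replicate 1 was not the highest. The ratio of group means was 3.75 for MT-ATP8 over MT-ATP6 and 1.91 for MT-ND4L over MT-ND4. The pairs were chosen after the values of the single genes were seen, so these ratios carry no test. Per 100 MT-CYB counts, the neighbour beyond MT-ND6, MT-ND5 was at 199, 134 and 154 against 525, 344 and 352. Per 100 counts of MT-ND6, which abuts it on the other strand, MT-ND5 was at 55.6, 109 and 70.4 against 155, 118 and 115.

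Set together, the 13 mitochondrial mRNAs and the 38 nuclear members had nearly equal counts. The mitochondrial sum includes 7 complex I mRNAs, while the 37 nuclear complex I subunits are outside the nuclear sum. These are sums of reads, not scaled by length, so they do not compare the whole output of the 2 genomes. The 13 mitochondrial mRNAs made up 1.44%, 1.44% and 1.80% of all counts in the scramble and 1.72%, 1.48% and 1.60% in the siSNHG15 libraries. The 38 nuclear members made up 1.54%, 1.47% and 1.67% against 1.67%, 1.58% and 1.57%. The groups overlapped in both sums. The ratio of mitochondrial to nuclear member counts was 0.998 ± 0.0752 in the scramble and 0.995 ± 0.0505 in the siSNHG15 libraries (SD, n = 3 each), a difference smaller than the spread between replicates. MT-CO3 alone held 76.8% to 80.1% of the mitochondrial mRNA counts in scramble and 70.7% to 76.9% in siSNHG15 libraries, so the sum follows that gene. The other 12 mRNAs together held 0.286%, 0.335% and 0.412% of all counts against 0.503%, 0.360% and 0.369%, again with overlapping groups. Because whole cultures were lysed, fewer cells with a given transcript and less of it per cell cannot be told apart.

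**Figure D3:**
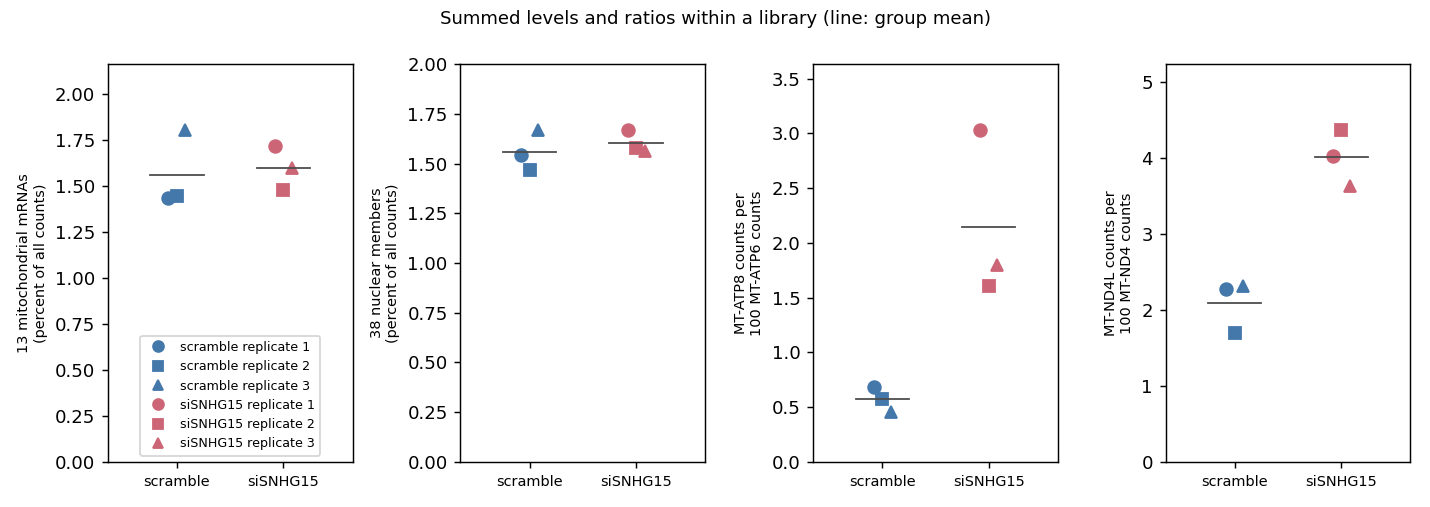
Summed levels as a percent of all counts in a library (left panels) and within-library ratios of genes on a shared mRNA (right panels), with 1 point per library and lines at group means. The sums overlap between the groups, and both ratios are higher in the 3 siSNHG15 libraries than in the 3 scramble libraries, at 1.61 to 3.03 against 0.456 to 0.687 for MT-ATP8 and 3.63 to 4.37 against 1.69 to 2.32 for MT-ND4L.

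The ribosomal RNA of mitochondria, which poly(A) selection captures only in part, was highest in the library that stood apart. The 2 mitochondrial rRNAs held 0.0251%, 0.0671% and 0.0368% of counts in scramble and 0.132%, 0.0737% and 0.0364% in siSNHG15 libraries. Their share peaked in siSNHG15 replicate 1, where the called MT-ND5, MT-ND3 and MT-ATP8 were also highest. The same held for MT-ND4L, MT-CO1, MT-ND2 and MT-ND6, which were not called. It did not hold for MT-ND1, MT-ND4, MT-CYB, MT-CO2, MT-CO3 and MT-ATP6. The part of the rRNA in the results of these mRNAs was not tested. Of 24 mitochondrial rRNA and tRNA genes, 7 were tested, and 0 were called in either direction by edgeR, with 1 at an unadjusted p under 0.05. All 7 estimates lay above 0, with a median of 0.62, where 6260 of all 12507 tested genes lay above 0. The filter on low counts can keep a gene through the group where it is higher. Nothing is therefore read from the shared sign of these 7.

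Nuclear DNA holds copies of mitochondrial genes, and reads that fit a copy equally well may be lost or split. Among windows of 75 bases, the read length, 36.6% in MT-CO1, 34.4% in MT-ND2, 28% in MT-ATP6, 17.1% in MT-ND1 and 14.9% in MT-CO3 had an exact match elsewhere in GRCh37. In MT-ND5 the share was 0.173%, and in MT-ND3, MT-ND4, MT-ND4L, MT-CYB and MT-ATP8 it was 0%. By exact match, the 3 mRNAs that rose had nearly all windows unique. MT-ND2, MT-CO1 and MT-ATP6 had many windows that were not, so their levels carry this uncertainty. Windows that match a copy apart from some bases were not counted for any gene. Whether reads of such copies were counted on the 3 mRNAs was not tested. Of 390 annotated nuclear copies, 6 had enough counts for testing and 0 were called by edgeR, with 0 at an unadjusted p under 0.05. The copy with most reads, MTND1P23, named here after its values were seen, had 6278, 5705 and 3593 counts against 5974, 2213 and 4123, of the same order as the 2126 to 5239 counts on MT-ND1 itself.

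Among the 4 nuclear subunits of complex II, only the iron-sulfur subunit SDHB was called. It was at 423, 417 and 433 CPM in the scramble and 311, 318 and 323 CPM in the siSNHG15 libraries, 424 ± 7.93 against 317 ± 5.76 (SD, n = 3). The gap between the groups was many times the spread within them. The log2 fold change was -0.42 (SE 0.11, edgeR adjusted p = 0.0478), close to the threshold. With upper-quartile factors the adjusted p was 0.0676. Leaving out single libraries kept the estimate between -0.43 and -0.41, but SDHB stayed called only without siSNHG15 replicate 1 (adjusted p = 0.0344), and the other 5 omissions gave 0.0772 to 0.147.

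The other complex II genes did not pass the test, and 2 of them had estimates above 0. SDHC, a membrane anchor, was at 99.8, 89.1 and 113 CPM against 103, 116 and 118 CPM, with overlapping groups and a log2 fold change of 0.17 (SE 0.13, edgeR adjusted p = 0.471). SDHA, the flavoprotein that oxidises succinate, was at 102 ± 13.7 against 114 ± 14.5 CPM, and SDHD, the other anchor, at 83.5 ± 14.6 against 76.7 ± 11.9 CPM. Per length, SDHB was the most abundant of the 4, with 418 CPM per kb in scramble libraries beside 76.8 for SDHC, 62.4 for SDHD and 37.9 for SDHA. Windows with an exact match elsewhere made up 45.9% of SDHC, 31.2% of SDHD and 8.51% of SDHA, and 0% of SDHB.

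None of the 9 nuclear complex III genes was called by edgeR, with 1 of them at an unadjusted p under 0.05. That gene was UQCRC2, a core subunit on the matrix side, at 122, 108 and 117 CPM in scramble and 70.6, 84.2 and 92.4 CPM in siSNHG15 libraries. Its groups did not overlap, and the log2 fold change was -0.49 (SE 0.13, edgeR adjusted p = 0.0511). DESeq2 gave an adjusted p of 0.0231, and edgeR with upper-quartile factors gave 0.0672. UQCRC2 was called in 6 of 13 alternatives that used every library, and in 1 of 6 that left out a single library. UQCRC1, the other core subunit, was at 129 ± 10.6 against 134 ± 34.6 CPM, with a log2 fold change of 0.05. UQCRH, the acidic hinge protein beside cytochrome c1 and the most abundant of the 9 per length (2739 CPM per kb), was at 1380, 1418 and 1615 against 1181, 1248 and 1320 CPM. The groups of UQCRH did not overlap, yet the log2 fold change of -0.23 (SE 0.12) was not called (adjusted p = 0.252). UQCRB, with 22 to 87 counts per library, had the highest estimate, 8.20, 5.97 and 6.65 CPM against 6.79, 10.2 and 10.2 CPM (0.38, SE 0.23, adjusted p = 0.34). The estimates of UQCRFS1 (the Rieske protein), UQCRQ, UQCR10, UQCR11 and CYC1 (cytochrome c1) lay between -0.13 and 0.07, all with overlapping groups. Exact matches elsewhere in the genome covered 22.5% of the windows of UQCRH, 16.8% of UQCRFS1 and 2.78% of UQCRB, so their levels carry this uncertainty.

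**Figure D4:**
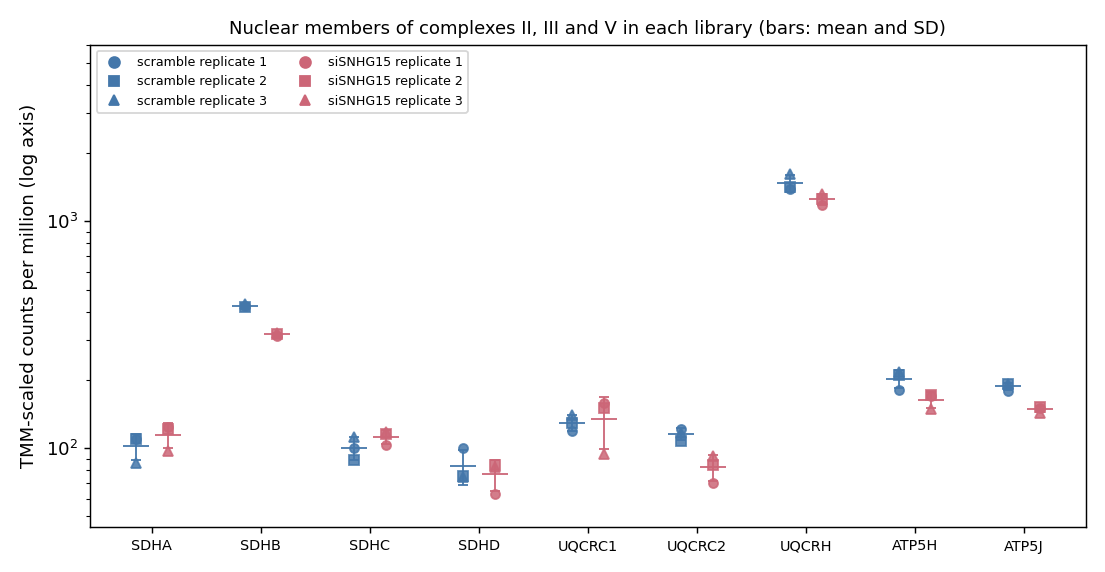
Levels of 9 nuclear members in each library (TMM-scaled CPM, log axis; blue is scramble, red is siSNHG15, the marker shape is the replicate, bars are mean and SD): the 4 complex II genes, the core subunits of complex III, and the complex III and V genes whose siSNHG15 libraries were all lower. The groups do not overlap for SDHB, UQCRC2, UQCRH, ATP5H and ATP5J, of which only SDHB had an adjusted p under 0.05.

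None of the 10 nuclear complex IV genes was called either, with 1 at an unadjusted p under 0.05. COX7B, a small structural subunit, was that gene, with 25, 25 and 11 reads in scramble and 31, 27 and 40 in siSNHG15 libraries. In CPM this was 2.93, 2.49 and 3.33 against 4.30, 3.88 and 4.70, groups that did not overlap but rest on few reads (log2 fold change 0.61, SE 0.26, edgeR adjusted p = 0.185). COX4I1, a nuclear subunit that joins the catalytic core early and the most abundant per length (1419 CPM per kb), was at 1132, 1010 and 1106 against 1080, 1094 and 932 CPM. Its groups overlapped (log2 fold change -0.06, SE 0.12, adjusted p = 0.786). COX5A, which joins early with COX4I1, had the lowest estimate, with 716, 623 and 807 against 569, 614 and 634 CPM (-0.24, SE 0.13, adjusted p = 0.283), and these groups overlapped at 1 library. The remaining 7 genes, COX5B, COX6A1, COX6B1, COX6C, COX7A2, COX7C and COX8A, had overlapping groups and estimates between -0.04 and 0.29. The median of the 10 was 0.09. In COX6A1, 47.9% of the windows had an exact match elsewhere in the genome. Another annotated gene on the same strand covers 35.4% of the exon bases of COX8A. Levels of these genes carry that uncertainty.

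None of the 15 nuclear ATP synthase genes was called, with 2 at an unadjusted p under 0.05. Of the 15 estimates, 11 lay below 0 with a median of -0.06, where 6247 of all 12507 tested genes lay below 0. Nothing is read from these counts about the complex. ATP5J, which encodes coupling factor 6 of the peripheral stalk, was at 179, 191 and 192 CPM in scramble and 150, 152 and 143 CPM in siSNHG15 libraries. ATP5H, subunit d of the same stalk, was at 181, 210 and 217 against 170, 171 and 149 CPM. The groups of both genes did not overlap. The log2 fold change was -0.33 (SE 0.11, edgeR adjusted p = 0.106) for ATP5J and -0.31 (SE 0.13, adjusted p = 0.167) for ATP5H. Values of the other stalk genes overlapped between the groups. ATP5F1, subunit b, had the highest estimate of the complex, with 109, 118 and 117 against 125, 131 and 117 CPM (0.12, SE 0.12, adjusted p = 0.582), and ATP5O, which links stalk and catalytic head, was at 252 ± 13.5 against 229 ± 20.7 CPM.

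In the catalytic head, the alpha and beta subunits ATP5A1 and ATP5B were at 704 ± 36.9 against 693 ± 42.4 CPM and 800 ± 37.5 against 849 ± 30.4 CPM. ATP5C1, the gamma subunit of the rotor, was at 199 ± 13 against 173 ± 15.2 CPM. These pairs of groups overlapped. The c subunit of the membrane ring is encoded by 3 genes for the same mature protein, ATP5G1, ATP5G2 and ATP5G3, whose log2 fold changes were 0.04, -0.13 and 0.09. ATP5I, subunit e and the most abundant per length (1011 CPM per kb), was at 280, 287 and 353 against 357, 244 and 235 CPM (-0.14, SE 0.17, adjusted p = 0.674). Without siSNHG15 replicate 1 the ATP5I estimate was -0.35 (adjusted p = 0.0998), and without any other library it stayed between -0.20 and -0.02. ATP5D, ATP5E, ATP5J2 and ATP5L also had overlapping groups, with estimates between -0.15 and -0.03. Other annotated genes on the opposite strand cover 61.3% of the exon bases of ATP5I, 37.3% of ATP5J and 19% of ATP5H, and the strand setting of the counting is not given in the sources used here.

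Genes around these complexes were listed by role. At an unadjusted p under 0.05, 12% of all tested genes were higher and 10.5% lower. Nothing is read about a list from its counts at that threshold. CYCS, the cytochrome c that carries electrons from complex III to IV, was at 229 ± 3.29 CPM in scramble and 136 ± 3.58 CPM in siSNHG15 libraries, and it fell by 0.76 on the log2 scale (SE 0.11, edgeR adjusted p = 0.00413). It was the 1 gene called among the 8 tested of 14 other subunits, tissue-specific paralogs and soluble partners. Of 35 tested assembly factors of complexes II to V, 0 were called, with 1 higher and 4 lower at an unadjusted p under 0.05 and a median of -0.02. Of 26 tested genes for mitochondrial transcription and RNA handling, 0 were called, with 1 higher and 4 lower at an unadjusted p under 0.05 and a median of -0.11. Of 11 genes for mitochondrial DNA replication and nucleotide supply, 0 were called, with 1 each way at an unadjusted p under 0.05.

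Of 8 tested regulators of mitochondrial biogenesis, 0 were called, with 1 each way at an unadjusted p under 0.05. Of 14 citric acid cycle genes, 0 were called, with 2 higher and 1 lower at an unadjusted p under 0.05. Of 37 nuclear complex I subunits, 0 were called, beside the 2 of 7 mitochondrial complex I mRNAs that were. Mitochondrial ribosomal proteins, which translate the 13 mRNAs, had 2 of 71 tested genes called, both lower, a share near the 2.23% of all genes. MRPS10 fell by 0.46 on the log2 scale (SE 0.12, edgeR adjusted p = 0.0498) and MRPL46 by 0.52 (SE 0.13, adjusted p = 0.0397). At an unadjusted p under 0.05, 11 of the 71 were lower and 1 higher, with a median of -0.08, where 10.5% of all tested genes were lower and 12% higher. Nothing is read from these counts about the list. Of 28 tested pseudogenes named after a nuclear member, 0 were called, with 3 higher at an unadjusted p under 0.05.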

How the data were processed

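RNA-seq of 3 scramble and 3 siSNHG15 libraries (TruSeq Stranded mRNA, paired 75-base reads) was used. The authors deposited raw read counts per Ensembl gene. For these, the study's methods name bowtie2 and the submitters' processing notes STAR and featureCounts, each with hg19 and no version. RNA extraction is likewise given differently, as TRIzol in the labels and as a Maxwell kit in the methods. Annotation release, strand setting and the treatment of reads with several placements are not given in the sources used here, so levels of genes with close copies or overlaps are uncertain. The mitochondrial sequence in the authors' build is not given either.

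Counts were filtered with filterByExpr (minimum 10, total 15), scaled with TMM and tested with edgeR 4.0.16 (quasi-likelihood, R 4.3.3, no block), with Benjamini-Hochberg adjustment over 12507 of 63677 genes. Names, positions and transcript lengths came from GENCODE release 44 on GRCh37, in which 8012 identifiers had no entry. Printed sequences and the 75-base windows were read from that genome. Each SE, and each standard error bar, is the absolute log2 fold change divided by the square root of the edgeR F statistic. It was not estimated separately by the model. The steps were tested on simulated data. Totals of 3446922 to 10256710 counts per library set the counting error, and the tests rest on the spread between libraries, which was larger (chi-square per degree of freedom of 4.05 to 18.5 between replicates).

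Each value per library is given for members with a p under 0.05 and, in each complex, for the most abundant per length and those with the highest and lowest fold change, and mean levels for all mitochondrial mRNAs. Genes outside the members are named if called in a pathway list. Members, lists and tests were chosen with earlier results of these data known. Alternatives were DESeq2 1.42.0, other scalings and filters, protein-coding genes only, loess offsets (span 0.3) for length and GC content, the replicate number as a block, and leaving out each library. Adding nuclear copies and leaving out MT-CO3 were chosen after seeing the data.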

Additional observations from a re-analysis of the deposited data

How the results depend on the processing

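MT-ND5 and MT-ATP8 were called in all 13 alternatives that used every library, MT-ND3 in 10, SDHB in 8 and UQCRC2 in 6. Of the 4 called members, the number became 8 with no filter on low counts. The number of nuclear members called, 1 in the report, was 2 (SDHB and UQCRC2) with RLE factors, DESeq2, no filter, the exon length offset or the GC offset, and 0 with upper-quartile factors or at least 10 counts in every library. The number of mitochondrial mRNAs called, 3 in the report, was 4 with upper-quartile factors (with MT-ND4L added). It was 6 with no filter (with MT-ND4L, MT-CO1 and MT-ATP6 added). The other pathway lists, with 3 genes called, gave 12 with no filter, 1 with at least 10 counts in every library and 8 with the GC offset. Over all genes, 671 calls (392 higher, 279 lower) became 1312 with no filter and 1014 with the GC offset (457 higher, 557 lower), and upper-quartile factors gave 515 higher and 230 lower.

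Whether the replicate numbers pair the samples is not known. Deviations of same-numbered libraries correlated at -0.07, 0.16 and -0.04, and those of differently numbered libraries at -0.17 to 0.14. With 3 libraries per group, these values cannot show whether same-numbered cultures were handled together. With the replicate number as a block, 2 members were called (MT-ND5 and MT-ATP8), 0 of them nuclear, and 1 gene of the other lists. The block with the length offset also gave 2, 0 and 1, and the block with the GC offset gave 7 genes of the other lists. MT-ND3 had a log2 fold change of 1.03 (edgeR adjusted p = 0.0553) with the block.

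Leaving out single libraries gave 0 to 4 called members, 0 to 1 nuclear and 0 to 3 mitochondrial (0 without scramble replicate 1 and 0 without scramble replicate 2), 1 to 6 genes of the other lists and 139 to 812 of all genes, with fewer samples in each fit. The mitochondrial median ran from -0.13 (without siSNHG15 replicate 1) to 0.37. The COX4I1 estimate ran from -0.11 to 0.0098, above 0 only without siSNHG15 replicate 3, and SNHG15 stayed between -1.78 and -1.70. In every alternative, MT-ND3, MT-ND4L, MT-ND5 and MT-ATP8 kept estimates above 0, and SDHB and UQCRC2 below 0. Counts were low for MT-ATP8 (17 to 164 per library) and COX7B (11 to 40). The smallest detectable change was not measured.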
